A study of Rattus norvegicus with 15 samples.

Results

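Transcripts of the 26S proteasome subunits were described in dorsal CA1 of the rat hippocampus. The members were the gene symbols of the raw count table that begin with Psma, Psmb, Psmc or Psmd followed by a number, without the immunoproteasome genes Psmb8, Psmb9 and Psmb10, and with a mean of at least 1 CPM (counts scaled to a common library size) over the 15 libraries. They came to 33 of the 22314 genes in the table: 6 alpha and 7 beta subunits of the core, 6 ATPases and 14 non-ATPase genes of the regulatory particle. Of the 35 symbols that match, Psma8 and Psmb11 stayed under the minimum, with means of 0.158 and 0.341 CPM and at most 7 and 9 reads in a library. All 33 members passed the filter on low counts, and their mean levels ran from 7.51 CPM for Psmd10 to 194 CPM for Psmd2, with 91 to 5008 reads per library. Psma3 was not analysed here. Psma3l, a gene named as like it, lies outside the rule and is given beside the members.

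The libraries came from male Sprague-Dawley rats of 8 to 9 weeks, wild type by the labels, whose dorsal CA1 had been injected with Accell siRNA, a form that cells take up without a transfection reagent. There were 3 groups of 5: scrambled siRNA without training (naive; replicates 1, 2, 9, 11 and 12), the same siRNA followed by training in contextual fear conditioning (scrambled trained; replicates 5, 6, 10, 15 and 16) and Rnf20 siRNA with the same conditioning (Rnf20-labelled; replicates 4, 8, 14, 18 and 20). Training followed the injection by 5 days, and the time from training to dissection is not in the labels. The tissue held all brain cell types, so a lower level can be less RNA per cell or fewer cells of a type, and the counts cannot tell these apart. The labels number the libraries without saying that each is its own animal, so the tests measure the spread between these libraries.

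The proteasome degrades proteins that carry ubiquitin chains. Its core is a barrel of alpha rings, which gate the entrance, around beta rings, which hold the proteolytic sites. The regulatory particle binds the chain, removes it and threads the substrate into the barrel, with a ring of ATPases as the motor and the non-ATPase subunits as scaffold, ubiquitin receptors and deubiquitinase. In the hippocampus, proteasome activity is required for the formation of lasting fear memory, and the ATPase encoded by Psmc5 has been studied there both as a proteasome subunit and at ubiquitinated histone H2B, the substrate of Rnf20.

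Subunit genes of this complex are known to share promoter elements through which cells raise them together, above all the antioxidant response element that the transcription factor Nfe2l1 binds when proteasome capacity is short. The 250 bases before the annotated start are shown for 4 members of unequal training fold change: Psmb2 (0.22 on the log2 scale), Psmb6 (0.15), Psmc4 (0.18) and Psmc5 (0.016). Sequences are from RefSeq on the assembly GRCr8, which is not the assembly the reads were counted on, and run 5′ to 3′ towards the start. Capitals mark TGACNNNGC, the core of the antioxidant response element, CCAAT, the CCAAT box, and GGGCGG, the GC box, each on either strand.
Psmb2 (chr5:144254808-144255057, plus strand): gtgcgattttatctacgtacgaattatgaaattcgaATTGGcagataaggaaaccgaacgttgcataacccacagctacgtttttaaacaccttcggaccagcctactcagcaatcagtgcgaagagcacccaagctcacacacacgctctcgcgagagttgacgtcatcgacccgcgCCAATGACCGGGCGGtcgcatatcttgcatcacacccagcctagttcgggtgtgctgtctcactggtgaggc
Psmb6 (chr10:55737638-55737887, plus strand): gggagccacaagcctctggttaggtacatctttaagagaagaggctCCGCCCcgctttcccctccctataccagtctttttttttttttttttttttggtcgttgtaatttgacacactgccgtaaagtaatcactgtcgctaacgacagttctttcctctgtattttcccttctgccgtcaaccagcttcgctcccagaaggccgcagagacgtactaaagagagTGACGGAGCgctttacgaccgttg
Psmc4 (chr1:92485061-92485310, minus strand): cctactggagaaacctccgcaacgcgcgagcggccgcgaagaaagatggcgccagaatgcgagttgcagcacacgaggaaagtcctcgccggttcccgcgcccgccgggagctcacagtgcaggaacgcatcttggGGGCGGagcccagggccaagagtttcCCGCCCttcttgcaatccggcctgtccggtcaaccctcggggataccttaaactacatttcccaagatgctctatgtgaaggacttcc
Psmc5 (chr10:91687303-91687552, plus strand): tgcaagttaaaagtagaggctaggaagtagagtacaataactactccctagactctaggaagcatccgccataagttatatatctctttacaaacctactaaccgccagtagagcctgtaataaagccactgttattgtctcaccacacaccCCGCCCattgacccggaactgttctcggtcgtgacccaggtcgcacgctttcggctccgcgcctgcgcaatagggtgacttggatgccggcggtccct
In Psmb2 the 3 motifs overlap in 1 run, and the TGACNNNGC match begins 68 bases before the start. The match in Psmb6 begins 24 bases before it, and the windows of Psmc4 and Psmc5 hold GC boxes alone.

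RefSeq promoters were matched for 29 of the 33 members, without Psma7, Psmd6, Psmd12 and Psmd14. TGACNNNGC was found in 5 of the 29 (17.2%; Psmb2, Psmb5, Psmb6, Psmd1 and Psmd9), against 10.2% of 27457 promoter windows of the same length. CCAAT was found in 15 of the 29 (51.7%) against 34.3%, and GGGCGG in 20 (69.0%) against 32.4%. The median GC content was 54.4% in the members' windows and 52% in all windows. All windows were those of the RefSeq promoter table, not limited to genes detected here. The shares therefore do not set the members against other expressed genes. These are matches of letters and not evidence of binding. The relation of motifs to fold changes was not tested.

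Total counts were 12537250 to 20644425 per library. Of the tissue markers, 4 of 5 CA1 genes were in the table and detected, and their summed level was lowest in scrambled trained replicate 10 (259 CPM, against 458 to 1509 CPM elsewhere). The same library had the highest summed level of 5 striatal neuron markers, 592 CPM against 98.6 to 344 CPM elsewhere. Rnf20 itself was at 39.1 to 44.6 CPM in naive, 36.4 to 48.5 CPM in scrambled trained and 38.3 to 44.6 CPM in Rnf20-labelled libraries. The ranges overlapped and the transcript was not called lower under the label (log2 fold change -0.041, edgeR adjusted p = 0.945), and that group is named by its label only. Scrambled trained replicates 10 and 15 and Rnf20-labelled replicates 14 and 18 lay farthest out on the main component of variation among libraries, at 53.5, 41.0, -49.3 and 45.0 on an axis holding 35.7% of the variance. Scrambled trained replicates 5 and 16 and Rnf20-labelled replicate 20 had the lowest choroid plexus level.

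After training under scrambled siRNA nearly all proteasome subunits had slightly higher mean levels, including all 13 of the core, and none passed the test over all genes. The fold change of scrambled trained against naive libraries was above 0 for 31 of the 33 members, with a median of 0.13 on the log2 scale, or 9.4%. Over the 14880 genes tested, 47.2% were above 0 and the median was -0.01. By edgeR's quasi-likelihood test with Benjamini-Hochberg adjustment over all genes, 0 members passed an adjusted p of 0.05, as did 0 genes in the whole table (0%). DESeq2, which called 0.39% of all genes, also called 0 members, and limma-voom called 0. At an unadjusted p under 0.05, 15 members were higher and 0 lower, where 6.62% of all genes were higher and 3.35% lower. That count was 5 without the 4 libraries far out on the main component and 5 with the reactive glia level as a covariate. Leaving out the 3 libraries lowest in choroid plexus genes gave 10, leaving out naive replicate 11 gave 8, and leaving out replicate 15 of the scrambled trained group gave 6. Members above 0 numbered 32 without the far libraries, 29 without those lowest in choroid plexus genes and 31 with the covariate.

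**Figure D1:**
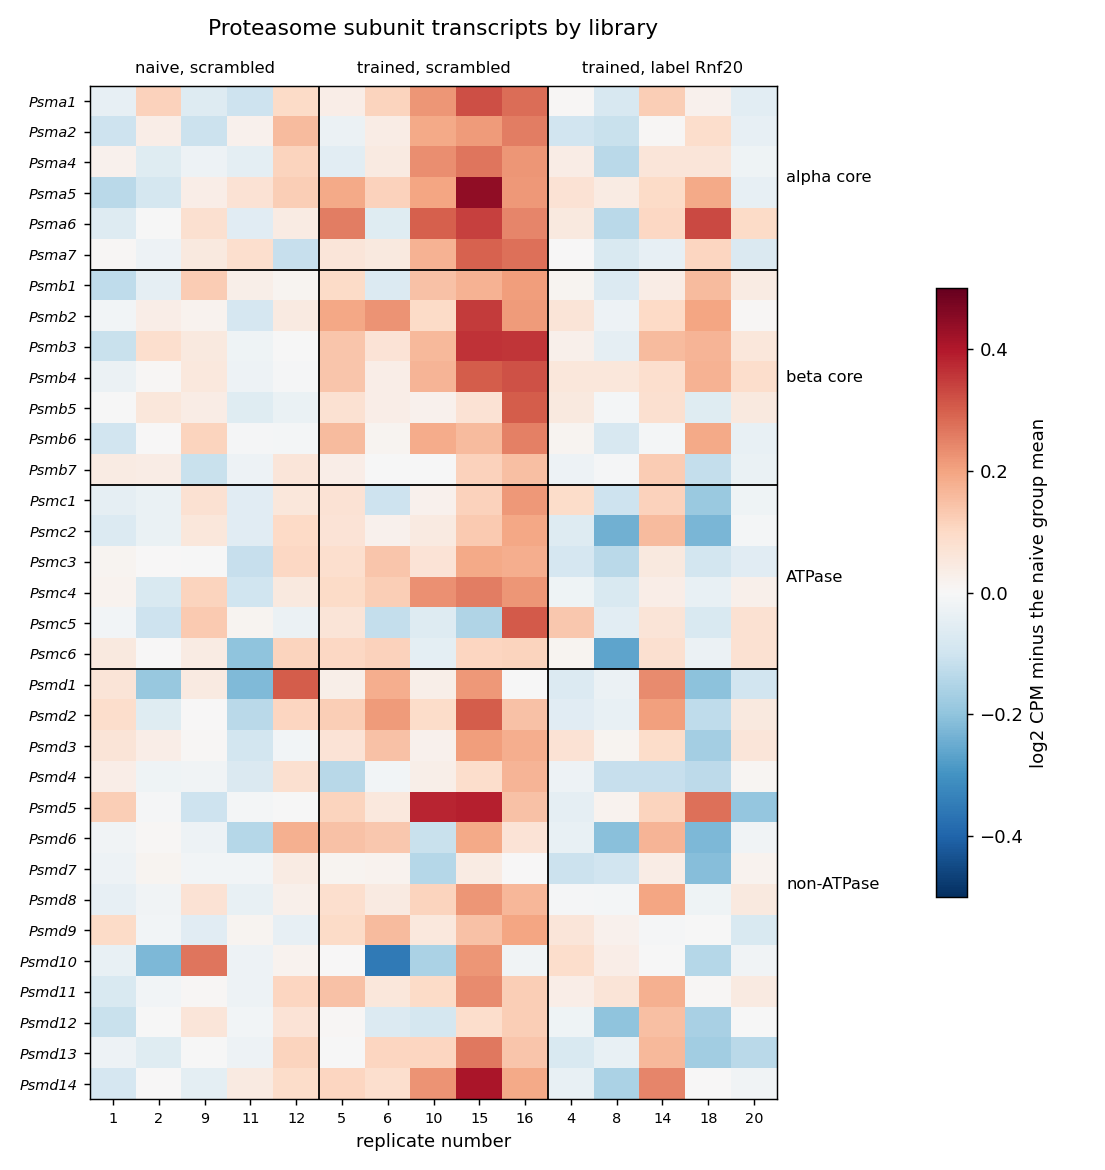
Level of each of the 33 subunit transcripts (rows, by class) in each of the 15 libraries (columns, by group and replicate number), as log2 CPM minus the mean of the naive group. Scrambled trained replicates 15 and 16 are red in nearly every row, with 32 and 31 members above the naive mean, and Rnf20-labelled replicate 18 is red in 11 of 13 core rows and in 3 of 20 regulatory rows.

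All 6 alpha subunits had a higher mean after training, with fold changes of 0.13 to 0.23 and a median of 0.18 on the log2 scale. Values per library are given from here on in CPM and in the order of the replicate numbers above. Psma5, a subunit of the gating ring, was at 68.6, 70.8, 77.2, 79.1 and 82.0 CPM in naive and at 85.8, 81.6, 86.3, 102 and 87.5 CPM in scrambled trained libraries. The groups overlapped only in that scrambled trained replicate 6 lay just under naive replicate 12. The means were 88.7 ± 7.97 against 75.5 ± 5.66 CPM (log2 fold change 0.23, SE 0.07; edgeR adjusted p = 0.381; SD, n = 5 each). Psma1 was at 71.0, 79.1, 69.9, 68.1 and 78.0 CPM in naive and 74.7, 79.0, 85.1, 91.4 and 88.6 CPM in scrambled trained libraries (log2 fold change 0.19, SE 0.07). Its 3 highest libraries were scrambled trained replicates 10, 15 and 16, and replicates 5 and 6 lay inside the naive range.

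Psma7 was at 103, 101, 106, 109 and 94.7 CPM in naive and 107, 106, 116, 126 and 124 CPM in scrambled trained libraries (log2 fold change 0.17, SE 0.07). Psma6 was at 109, 114, 120.1, 109 and 117 against 136, 109, 139.9, 144 and 134 CPM (log2 fold change 0.22, SE 0.09). Scrambled trained replicate 6 was as low as the lowest naive libraries for Psma6, while the other 4 exceeded every naive library. Psma2 had the smallest difference of the class, at 79.7, 87.7, 79.6, 87.0 and 95.5 against 83.9, 87.9, 97.8, 99.2 and 102 CPM (log2 fold change 0.13, SE 0.07). Psma3l, outside the rule, was at 112 ± 5.60 CPM in naive and 125 ± 8.02 CPM in scrambled trained libraries (log2 fold change 0.16, SE 0.08; adjusted p = 0.529), inside the range of the 6 members.

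The beta subunits held the member of smallest p and the only one whose naive and scrambled trained groups did not overlap. This was Psmb2, a structural subunit without a proteolytic site, at 65.7, 67.8, 67.2, 62.6 and 68.4 CPM in naive and 75.8, 77.5, 70.8, 84.4 and 76.9 CPM in scrambled trained libraries. Every trained library exceeded every naive one, by a gap from 68.4 to 70.8 CPM. The means were 77.1 ± 4.88 against 66.3 ± 2.32 CPM (log2 fold change 0.22, SE 0.06; 95% interval 0.086 to 0.35; edgeR adjusted p = 0.379). Over all genes tested, 1.09% were higher without overlap and 0.665% lower, and 0 members were lower in this way. Among the alternatives its smallest adjusted p was 0.0732, by DESeq2.

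Psmb3 and Psmb4, also structural subunits, followed. Psmb3 was at 65.5, 75.1, 73.3, 69.8 and 70.7 CPM in naive and 77.9, 74.1, 79.2, 91.0 and 90.8 CPM in scrambled trained libraries (log2 fold change 0.22, SE 0.07). Psmb4 was at 121, 124, 128, 121 and 123 against 136, 126, 139, 152 and 154 CPM (log2 fold change 0.20, SE 0.06). For both genes scrambled trained replicates 15 and 16 were the highest libraries of all, and replicate 6 lay inside the naive range.

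The subunits that carry the proteolytic sites had smaller fold changes than these 3, and the difference was not tested. These 3 were named for the smallest p of the class, so large fold changes were part of their choice. Psmb1, also a structural subunit, was at 153 ± 9.98 CPM in naive and 166 ± 12.1 CPM in scrambled trained libraries. Its fold change was below that of Psmb6. Psmb6, which holds the caspase-like site, was at 76.4, 81.8, 88.1, 81.2 and 81.1 CPM in naive and 91.0, 82.4, 92.9, 91.0 and 97.3 CPM in scrambled trained libraries (log2 fold change 0.15, SE 0.07). Psmb5, which holds the chymotrypsin-like site, was at 65.3, 68.0, 67.0, 62.6 and 63.8 against 68.9, 66.9, 66.3, 68.6 and 80.5 CPM (log2 fold change 0.10, SE 0.06; 95% interval -0.028 to 0.24). Scrambled trained replicate 16 was far above the other libraries for Psmb5, and without it the fold change was 0.050. Psmb7, which holds the trypsin-like site, was at 101, 101, 91.3, 97.0 and 103 against 101, 98.4, 98.6, 107 and 109.6 CPM (log2 fold change 0.059, SE 0.06), with wide overlap, and its fold change was 0.031 without naive replicate 9. The class as a whole had 7 of 7 members above 0 and a median of 0.15.

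The ATPases, which form the motor ring, showed the smallest median of the 4 classes, 0.08, with 6 of 6 above 0. The difference between class medians was not tested. Psmc4 was at 76.5, 71.7, 81.6, 70.7 and 78.3 CPM in naive and 80.7, 82.4, 88.6, 90.3 and 88.2 CPM in scrambled trained libraries (log2 fold change 0.18, SE 0.06; edgeR adjusted p = 0.381). The lowest trained library, replicate 5, lay just under naive replicate 9, and the other 4 exceeded every naive library. Psmc3 was at 124, 123, 123, 113 and 132 against 130.01, 135, 129, 140.1 and 139 CPM (log2 fold change 0.13, SE 0.06). Psmc2 was at 106, 109, 116, 107 and 119 against 117, 113, 115, 122 and 127 CPM (log2 fold change 0.091, SE 0.08).

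Psmc5 showed the least difference among the ATPases. It was at 158, 149, 175, 161 and 157 CPM in naive and 167, 147, 153, 144 and 198 CPM in scrambled trained libraries (log2 fold change 0.016, SE 0.09; 95% interval -0.17 to 0.20). The trained libraries held both the lowest and the highest of these 10 values, in replicates 15 and 16. The fold change was -0.07 without replicate 16 and -0.11 when the 3 libraries lowest in choroid plexus genes were left out.

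The fold change was above 0 in 12 of the 14 non-ATPase genes (median 0.13), where 47.2% of all genes were above 0. At an unadjusted p under 0.05, 5 were higher, where 6.62% of all genes were. Psmd14, the deubiquitinase that removes the ubiquitin chain before degradation, was at 60.7, 64.4, 62.2, 66.5 and 68.6 CPM in naive and 69.4, 68.3, 75.2, 85.5 and 73.5 CPM in scrambled trained libraries (log2 fold change 0.21, SE 0.08). Trained replicate 6 lay just under naive replicate 12, and the others were higher than all naive libraries. Psmd11, a scaffold subunit that contacts the core, was at 74.7, 77.8, 79.1, 77.3 and 84.8 against 87.1, 81.7, 84.0, 92.7 and 85.6 CPM (log2 fold change 0.13, SE 0.06). Psmd4, a ubiquitin receptor, overlapped widely, at 80.5, 77.6, 77.8, 74.9987 and 83.3 against 71.6, 78.1, 80.4, 83.7 and 88.7 CPM (log2 fold change 0.030, SE 0.06), and was below 0 without scrambled trained replicate 16.

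Psmd5, Psmd9 and Psmd10 match the symbol rule but encode chaperones of the assembly of the regulatory particle, which leave before the particle is complete. Psmd5 had the largest fold change of the class, at 34.8, 31.8, 29.7, 31.7 and 31.8 CPM in naive and 34.5, 33.1, 41.5, 41.7 and 35.3 CPM in scrambled trained libraries (log2 fold change 0.22, SE 0.09). Scrambled trained replicates 10 and 15 were the highest of these. Psmd10 was one of the 2 members below 0, at 7.41, 6.50, 9.15, 7.46 and 7.69 against 7.60, 5.94, 6.80, 8.85 and 7.50 CPM (log2 fold change -0.056, SE 0.12), with the lowest counts of any member. Its fold change was -0.13 without scrambled trained replicate 15 and 0.023 without replicate 6. Without the 3 chaperones, 10 of the 11 non-ATPase subunits were above 0 and the median was 0.125.

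Psmd7, which pairs with the deubiquitinase, and Psmd12, a scaffold subunit of the lid, were level between the groups. Psmd7 was at 104, 107, 105, 105 and 109 CPM in naive and 107, 108, 96.3, 109 and 106 CPM in scrambled trained libraries (log2 fold change -0.011, SE 0.06; 95% interval -0.14 to 0.12). It was the other member below 0, and its sign turned with 1 surrogate variable and with some libraries left out. Psmd12 was at 71.2, 76.7, 80.2, 76.2 and 80.7 against 77.3, 73.4, 72.3, 81.7 and 83.7 CPM (log2 fold change 0.013, SE 0.07). The 11 other members were Psma4, Psmb1, Psmc1, Psmc6, Psmd1, Psmd2, Psmd3, Psmd6, Psmd8, Psmd9 and Psmd13. Their fold changes ran from 0.07 to 0.18, all above 0. Of them 2 were higher at an unadjusted p under 0.05, where 6.62% of all genes were.

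**Figure D2:**
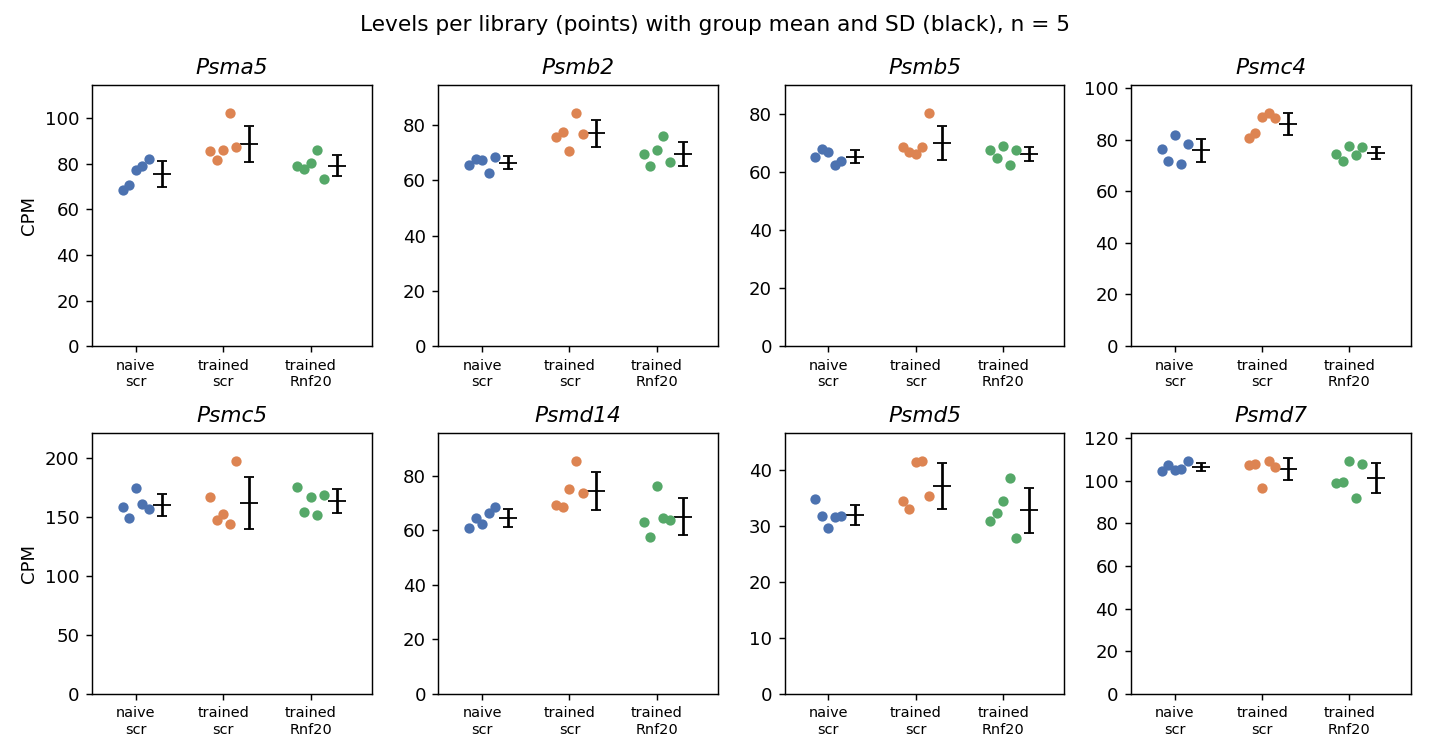
Level in CPM of 8 members in each library (points, from left to right by replicate number), with the group mean and SD in black, n = 5 libraries a group, on axes that start at 0. Psmb2 is the member whose naive and scrambled trained points do not overlap. The means of Psmc5 and Psmd7 are level between the naive and scrambled trained groups. The Rnf20-labelled mean of Psmd7 is lower, at 101 CPM against 106 CPM in naive libraries.

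The label Rnf20 siRNA was compared with scrambled siRNA within trained animals. Nearly all members had lower means in the Rnf20-labelled libraries, by about the amount they had been higher in the scrambled trained ones. Both comparisons rest on the same 5 scrambled trained libraries, so the opposite signs are not independent of each other. Markers of other cell types also differed in this comparison: reactive glia markers were above 0 in 0 of 5 (median -0.60), microglia in 1 of 6 (median -0.40), blood in 0 of 3 (median -1.003), striatal neurons in 0 of 5 (median -0.26) and choroid plexus in 0 of 6 (median -0.36). In mean log2 CPM the striatal and choroid plexus lists went the other way. Striatal markers were at 4.05 in Rnf20-labelled and 3.70 in scrambled trained libraries, and choroid plexus markers at 3.77 and 3.17. Scrambled trained replicate 10 was the highest trained library for both lists. Pan-neuronal markers were above 0 in 5 of 5 (median 0.14) and oligodendrocyte markers in 5 of 6 (median 0.14). The lists of single neuron types differed from the pan-neuronal one: CA1 markers were above 0 in 1 of 4 (median -0.21) and dentate granule neuron markers in 1 of 3 (median -0.12). The part of these cell types in the members' differences was not tested beyond the alternatives given here. The fold change was below 0 for 31 of 33 members, with a median of -0.13, against 50.7% of all genes above 0 and a median of 0.00. By edgeR 0 members passed an adjusted p of 0.05 (0% of all genes did), and DESeq2, which called 0.00672% of all genes, and limma-voom called 0 members as well. At an unadjusted p under 0.05, 11 members were lower and 0 higher, where 2.98% of all genes were lower and 2.63% higher. That count was 4 without the 3 libraries lowest in choroid plexus genes, 4 with only the trained groups in the fit and 6 with the reactive glia level as a covariate. It was 2 without scrambled trained replicate 15, 7 without scrambled trained replicate 16, and 5, 5 and 3 without Rnf20-labelled replicates 4, 8 and 20.

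The only members whose trained groups did not overlap were the ATPases Psmc3 and Psmc4, where 0.262% of all genes were lower without overlap and 0.397% higher. Psmc4 was at 74.5, 71.8, 77.4, 73.8 and 77.0 CPM in Rnf20-labelled libraries, all under the lowest scrambled trained value of 80.7 CPM. The means were 74.9 ± 2.34 against 86.1 ± 4.22 CPM (log2 fold change -0.20, SE 0.06; 95% interval -0.33 to -0.075; edgeR adjusted p = 0.832). Psmc3 was at 116, 112, 127, 115 and 118 CPM, all under 129 CPM, the lowest scrambled trained value (log2 fold change -0.20, SE 0.06). Psmc2 was at 107, 94.3, 124, 95.02 and 111 CPM, low in replicates 8 and 18 and high in replicate 14 (log2 fold change -0.16, SE 0.08). Psmc5 was the only ATPase above 0 here, at 176, 154, 167, 151 and 169 CPM (log2 fold change 0.014, SE 0.09), with a sign that turned below 0 under upper-quartile scaling.

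The alpha subunits had the lowest class median, -0.16, with 6 of 6 below 0. At an unadjusted p under 0.05, 4 were lower, where 2.98% of all genes were. Psma7 was at 103, 97.1, 99.6, 110.2 and 97.3 CPM in Rnf20-labelled libraries, with replicate 18 alone inside the scrambled trained range (log2 fold change -0.19, SE 0.07). Psma1 was at 73.3, 69.2, 79.5, 74.2 and 70.4 CPM (log2 fold change -0.19, SE 0.07). Psma5 was at 79.1, 77.6, 80.6, 86.0 and 73.2 CPM (log2 fold change -0.16, SE 0.07), and Psma2 at 80.1, 79.3, 86.1, 91.0 and 83.2 CPM (log2 fold change -0.17, SE 0.07). For Psma5 and Psma2, Rnf20-labelled replicate 18 was the highest of its group. The fold change of Psma5 was -0.10 without scrambled trained replicate 15.

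The beta subunits were below 0 in 7 of 7 with a median of -0.10. Psmb2 was at 69.3, 65.1, 70.9, 76.0 and 66.5 CPM in Rnf20-labelled libraries (log2 fold change -0.15, SE 0.06). Psmb3 was at 72.1, 68.7, 79.0, 79.7 and 73.7 CPM (log2 fold change -0.15, SE 0.07). Among the catalytic subunits, Psmb6 was at 82.4, 77.2, 81.0, 93.1 and 79.6 CPM (log2 fold change -0.14, SE 0.07), Psmb5 at 67.6, 65.0, 69.0, 62.7 and 67.5 CPM (log2 fold change -0.083, SE 0.06) and Psmb7 at 97.0, 98.4, 108, 91.0 and 96.5 CPM (log2 fold change -0.068, SE 0.06). Replicate 18 was the highest of the group for Psmb2, Psmb3 and Psmb6 and the lowest for Psmb5 and Psmb7. Without scrambled trained replicate 16 the fold change was -0.029 for Psmb5 and -0.044 for Psmb7, and without Rnf20-labelled replicate 14 it was -0.10 for Psmb7.

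The non-ATPase genes were below 0 in 13 of 14, with a median of -0.12. Psmd14 was at 62.8, 57.7, 76.3, 64.4 and 63.6 CPM in Rnf20-labelled libraries, with replicate 14 inside the scrambled trained range and the other 4 below it (log2 fold change -0.20, SE 0.08). Psmd4 was at 77.4, 72.7, 72.7, 72.05 and 79.3 CPM (log2 fold change -0.11, SE 0.06). Psmd11 was at 80.6, 82.3, 89.1, 79.1 and 81.2 CPM (log2 fold change -0.065, SE 0.06), Psmd12 at 75.9, 66.9, 85.4, 68.8 and 76.8 CPM (log2 fold change -0.056, SE 0.07) and Psmd7 at 98.7, 99.5, 109, 91.7 and 108 CPM (log2 fold change -0.058, SE 0.06). For Psmd7 and Psmd12, replicate 14 was the highest of the group, and the lowest was replicate 18 for Psmd7 and replicate 8 for Psmd12. Psmd12 was at -0.018 without Rnf20-labelled replicate 8 and at -0.11 without replicate 14, and Psmd7 was at -0.029 without replicate 18. Psmd11 was at -0.035 without scrambled trained replicate 15, and Psmd4 at -0.069 without scrambled trained replicate 16. The chaperone Psmd5 was at 30.9, 32.3, 34.5, 38.6 and 27.9 CPM (log2 fold change -0.18, SE 0.09), and Psmd10, the other member above 0 beside Psmc5, at 8.08, 7.78, 7.58, 6.88 and 7.50 CPM (log2 fold change 0.041, SE 0.12).

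**Figure D3:**
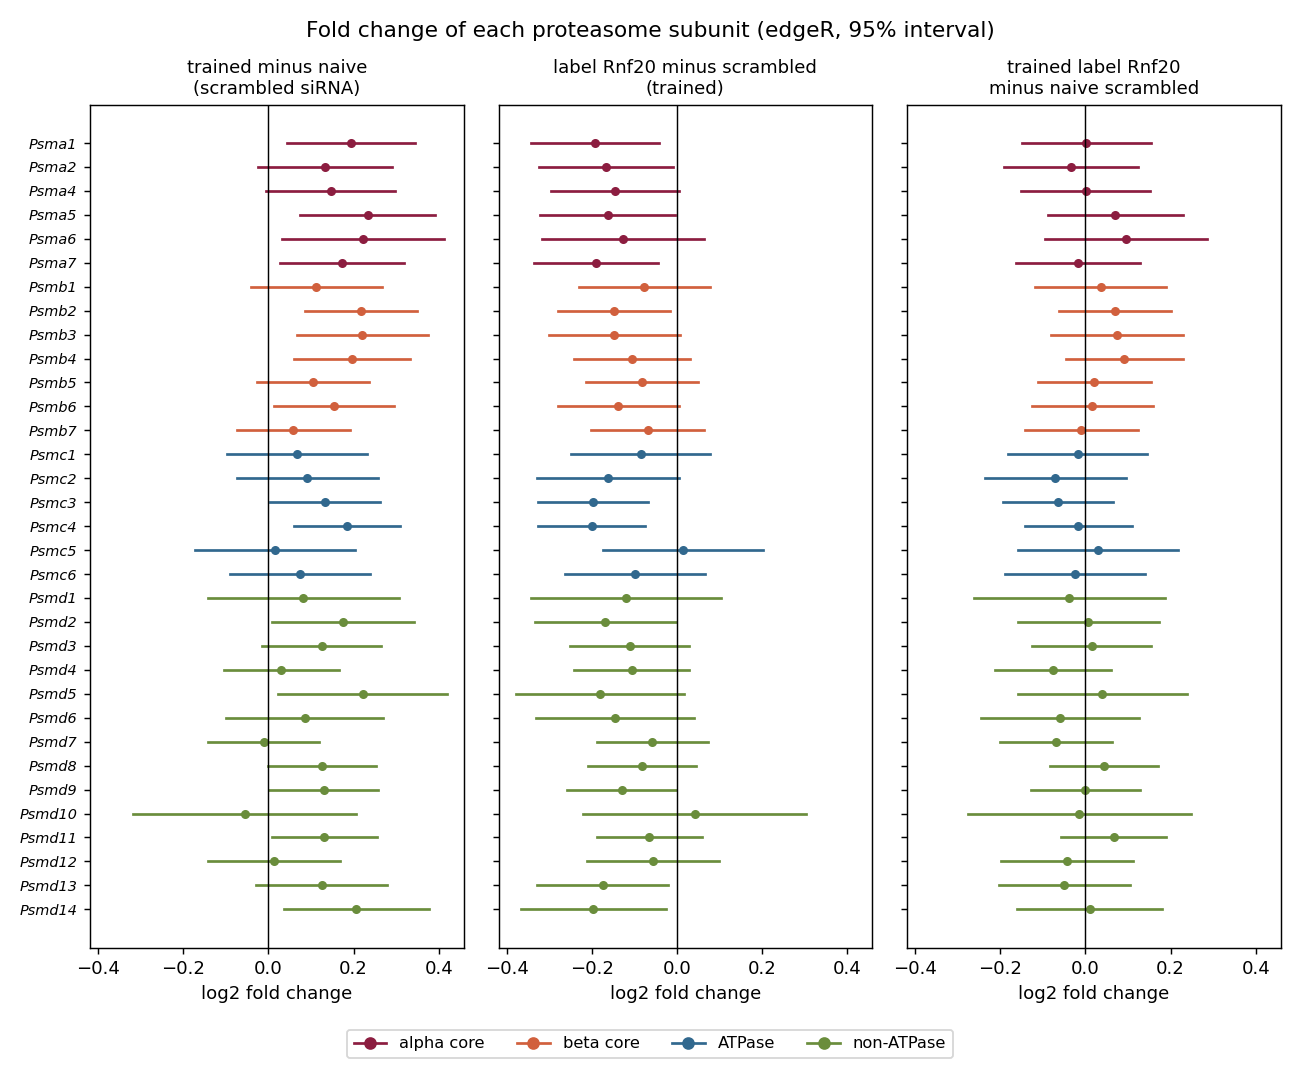
Log2 fold change (points) and 95% interval (lines) of each member by edgeR in the 3 comparisons, coloured by class. Points lie right of 0 for 31 of 33 members in the first panel, left of 0 for 31 in the second, and on both sides in the third, and the panels share groups.

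Trained Rnf20-labelled libraries were level with naive libraries for the complex as a whole. The fold change was above 0 for 17 of 33 members, with a median of 0.00, against 50.6% of all genes above 0. By edgeR 0 members passed an adjusted p of 0.05 (0% of all genes did) and 0 had an unadjusted p under 0.05, where 1.21% of all genes were higher and 1.09% lower at that level. DESeq2, at 0.00672% of all genes, and limma-voom also gave 0 members after adjustment. This does not show that the groups are equal: the 95% intervals of single members reached from -17.5% to 21.9%. Psma6 was highest in Rnf20-labelled replicate 18, at 117, 104, 122, 143 and 121 CPM across that group (log2 fold change 0.095, SE 0.09). Its fold change was 0.035 without replicate 18 and 0.15 without replicate 8. Psmb4 was at 128, 128, 131, 139 and 131 CPM, just above every naive library (log2 fold change 0.091, SE 0.06), and it was the only member without overlap, where 0.249% of all genes were higher in this way. Psmc3 and Psmd4 had the smallest p of the ATPase and non-ATPase classes, at log2 fold change -0.064, SE 0.06 and log2 fold change -0.076, SE 0.06. Without naive replicate 12 these were -0.028 and -0.046. The class medians were 0.00 for alpha, 0.04 for beta, -0.02 for ATPase and -0.01 for non-ATPase genes. With 1 library left out they ran from -0.012 to 0.037, from 0.021 to 0.068, from -0.056 to 0.0052 and from -0.049 to 0.0097. Members above 0 numbered 13 without Rnf20-labelled replicate 14 and 23 without naive replicate 12, so no class is given a direction here.

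Across the 3 groups together, edgeR's F test gave 0 members at an adjusted p of 0.05 (0% of all genes) and 9 at an unadjusted p under 0.05 (6.44% of all genes). The lowest adjusted p was 0.743. DESeq2's likelihood ratio test also called 0 members. The members' spread between libraries of a group was below the median of all genes tested. Their biological coefficient of variation, the spread beyond counting noise in the edgeR fit, had a median of 0.092 and ran from 0.078 for Psmd11 to 0.138 for Psmd10. The median was 0.161 over all genes tested and 0.135 over the 10683 genes at or above the lowest member in mean level. That floor was set by Psmd10, at 7.51 CPM, and the genes above it were not matched to the members in level. The comparison therefore cannot tell a low spread of the subunits from one that goes with their level. The standard errors of the members' fold changes were 0.06 to 0.12 on the log2 scale.

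Core and regulatory genes stood at unequal distances from the naive mean in some libraries. The mean log2 CPM of the 13 core subunits and of the 20 regulatory genes was taken in each library, relative to the naive group mean. In scrambled trained replicates 5, 6, 10, 15 and 16 the core was at 0.10, 0.05, 0.16, 0.26 and 0.25, and the regulatory genes were at 0.06, 0.05, 0.04, 0.18 and 0.14. All 5 libraries were thus above 0 for both parts, and replicates 10 and 16 had the wider gaps. Single naive libraries spread from -0.05 to 0.04 for the core and from -0.06 to 0.07 for the regulatory genes. For the core all 5 scrambled trained libraries exceeded every naive library, replicate 6 only just. For the regulatory genes only replicates 15 and 16 did so. In Rnf20-labelled replicates 4, 8, 14, 18 and 20 the core was at 0.02, -0.05, 0.07, 0.12 and 0.00, and the regulatory genes were at -0.01, -0.08, 0.11, -0.10 and -0.01. Replicate 18 stood apart with the core high and the regulatory genes low: 11 of 13 core members but 3 of 20 regulatory members exceeded the naive mean, and 0 of the 6 ATPases did.

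The gap between core and regulatory means was 0.08 to 0.18 in naive, 0.13 to 0.25 in scrambled trained and 0.10 to 0.34 in Rnf20-labelled libraries, so the groups overlapped. The 4 widest gaps were in Rnf20-labelled replicate 18 (0.34) and scrambled trained replicates 10, 16 and 15 (0.25, 0.24 and 0.21). The same 4 libraries had the highest levels of the reactive glia markers, genes that astrocytes and other glia raise after injury, with mean log2 CPM of 7.32, 7.50, 7.78 and 8.29 against 4.69 to 6.70 in the other 11. Of the 6 listed markers 5 were in the table, all 5 had a higher mean after training, and none was at 0 in all libraries. Their summed level was 2991 to 4552 CPM in naive, 4095 to 7666 CPM in scrambled trained and 2300 to 6758 CPM in Rnf20-labelled libraries. On the same scale the pan-neuronal markers were lowest in scrambled trained replicates 10 and 15 and Rnf20-labelled replicates 18 and 8, and all 5 had a lower mean after training. Their summed level was 5264 to 6313 CPM in naive, 3545 to 6530 CPM in scrambled trained and 4235 to 7216 CPM in Rnf20-labelled libraries.

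With the reactive glia level as a covariate, chosen after the data were seen, the class medians for training were 0.13 for alpha, 0.12 for beta, 0.15 for ATPase and 0.14 for non-ATPase genes. The order of the core and regulatory classes was thus the other way round from the fit without it, while the median of all 33 members stayed at 0.13. Without the 4 libraries far out on the main component the class medians were 0.15, 0.15, 0.11 and 0.11. Microglia markers had a higher mean after training in 5 of 6 (median 0.33), blood markers in 3 of 3 (median 2.08), oligodendrocyte markers in 0 of 6 (median -0.26) and choroid plexus markers in 0 of 6 (median -0.75). Striatal neuron markers were higher in 4 of 5 (median 0.18). In mean log2 CPM relative to naive, scrambled trained replicates 5, 6, 15 and 16 were at -0.82, -1.30, -1.43 and -0.69 for this list. Replicate 10 alone was above, at 2.14. CA1 markers were higher in 3 of 4 (median 0.12), though their mean log2 CPM was 6.62 against 6.67 in naive libraries. Dentate granule neuron markers were higher in 2 of 3 (median 0.26). The part of these cell types in these differences was not tested beyond this.

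**Figure D4:**
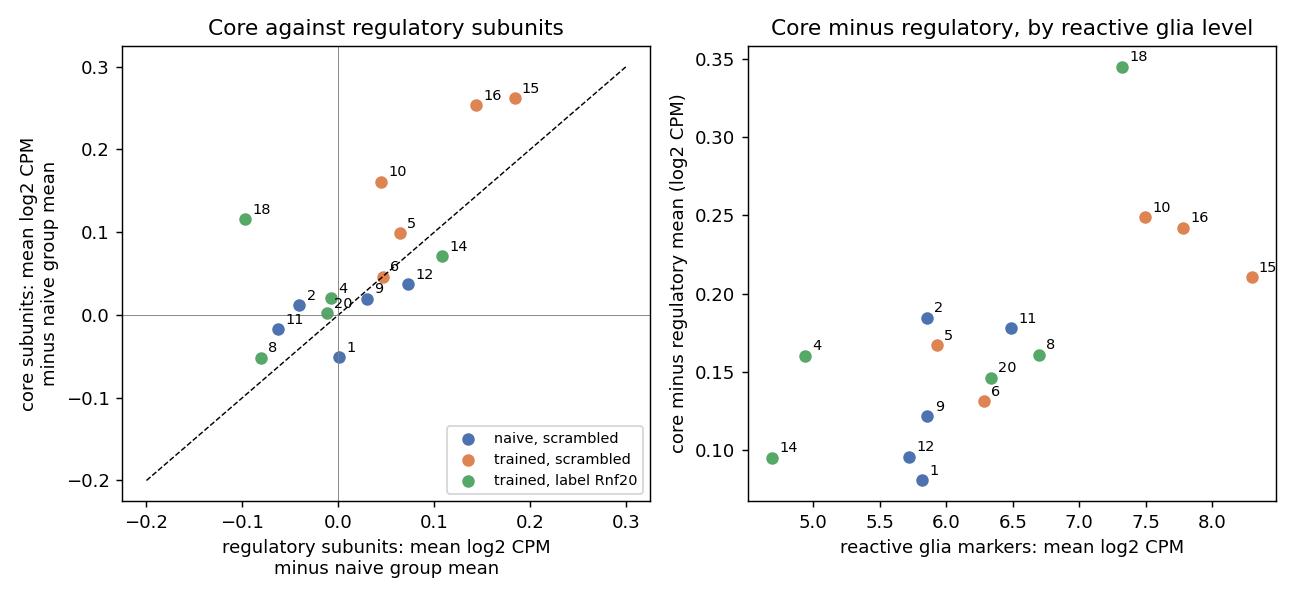
Left, mean log2 CPM of the 13 core subunits against that of the 20 regulatory genes in each library, both minus the naive group mean, with the line of equal values dashed and replicate numbers beside the points. Right, the core mean minus the regulatory mean against the mean log2 CPM of the reactive glia markers, where the 4 libraries with the widest gaps, 0.21 to 0.34, are also the 4 of highest marker level.

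Other genes of the pathway, in lists chosen for their function, differed between scrambled trained and naive libraries to unequal extents, and 0 passed the edgeR test over all genes. The list of inducible beta subunits and activators, which also holds the inhibitor Psmf1, had the largest median, 0.32. The fold change was above 0 in 7 of 7 tested genes, where 47.2% of all genes were. It ran from 0.0076 for Psme4, which was level, to 0.85 for Psmb8. At an unadjusted p under 0.05, 4 were higher, where 6.62% of all genes were. Psme2, a subunit of the activator that interferon induces, was at 27.1, 27.2, 34.0, 28.7 and 28.7 CPM in naive and 27.9, 36.3, 55.6, 50.8 and 39.4 CPM in scrambled trained libraries (log2 fold change 0.53, SE 0.17; edgeR adjusted p = 0.383). Psmb9, which replaces Psmb6 in the immunoproteasome, was at 7.41, 8.13, 9.87, 8.65 and 9.19 against 8.15, 14.4, 18.9, 17.7 and 18.6 CPM (log2 fold change 0.85, SE 0.28). For Psmb9, 4 of the 5 scrambled trained libraries exceeded every naive library, and replicate 5 lay inside their range. In Rnf20-labelled libraries Psme2 was at 27.4, 30.3, 24.98, 42.0 and 27.7 CPM and Psmb9 at 8.08, 11.4, 4.33, 16.0 and 7.50 CPM, with replicate 18 highest and replicate 14 lowest for both. Against scrambled siRNA in trained animals, 1 of these 7 genes was above 0, and the median was -0.37. At an unadjusted p under 0.05, 5 were lower, where 2.98% of all genes were.

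Among assembly chaperones outside the symbol rule, 3 of 4 tested were above 0, and their median was 0.08. Psmg1, a chaperone of the alpha ring, was at 27.8 ± 2.67 against 26.4 ± 1.85 CPM (log2 fold change 0.070, SE 0.08), and Psmg2, its partner, at 13.3 ± 0.824 against 12.6 ± 1.53 CPM (log2 fold change 0.087, SE 0.10). The subunits with other symbols gave 0.11 for Sem1, a small lid subunit, and 0.061 for Adrm1, a ubiquitin receptor. Adrm1 was at 62.8, 60.5, 60.4, 63.6 and 60.8 CPM in naive, 56.7, 64.8, 64.7, 69.7 and 65.4 CPM in scrambled trained and 59.0, 59.0, 54.4, 58.0 and 61.5 CPM in Rnf20-labelled libraries. Its groups overlapped in the first comparison, and the Rnf20-labelled values lay under every scrambled trained library but replicate 5 (log2 fold change -0.14, SE 0.06).

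Ubiquitin shuttles and proteasome-bound enzymes, which hand substrates to the complex or trim their chains, were level, with 4 of 11 above 0 and a median of -0.01. Ecpas, which binds core and regulatory particle, was at 127 ± 11.7 against 132 ± 11.9 CPM (log2 fold change -0.052, SE 0.09), and Rad23b, a shuttle, at 237 ± 22.6 against 229 ± 21.7 CPM (log2 fold change 0.050, SE 0.09). Of the 6 regulators of proteasome gene transcription and their processing, 4 were above 0, with a median of 0.05. Nfe2l2, which binds the antioxidant response element under oxidative stress, was at 37.2, 35.5, 42.1, 51.2 and 38.2 CPM in naive and 43.7, 39.8, 47.6, 67.5 and 51.1 CPM in scrambled trained libraries (log2 fold change 0.29, SE 0.16). Vcp, a segregase that extracts substrates for the proteasome, was at 335 ± 29.0 against 304 ± 33.3 CPM (log2 fold change 0.14, SE 0.09). Nfe2l1 went the other way and had the lowest fold change of the 6 regulators, -0.099 on the log2 scale. Its mean was 143 CPM in scrambled trained and 153 CPM in naive libraries, and the groups overlapped. In these last 2 lists 0 genes reached an unadjusted p under 0.05 for training by edgeR. Against scrambled siRNA in trained animals, 4 of the 6 regulators were below 0 in Rnf20-labelled libraries, with a median of -0.095. At an unadjusted p under 0.05, 1 of them was lower, where 2.98% of all genes were.

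Pseudogene copies limit the counts of some members. The RefSeq gene table names 39 copies of proteasome subunit genes, and 14 of the 33 members have at least 1. They are Psma2, Psma5, Psma6, Psma7, Psmb3, Psmb4, Psmb6, Psmb7, Psmc4, Psmc6, Psmd1, Psmd8, Psmd12 and Psmd14. Of the members without overlap in a comparison, Psmb4 and Psmc4 have a copy, and Psmb2 and Psmc3 have none. Whether reads shared with a copy were split or dropped in the authors' counting is not given in the sources used here, so levels of those members are uncertain to that extent.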

How the data were processed

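RNA from dorsal CA1 was sequenced in 15 libraries made with a stranded kit and 14 PCR cycles, per the labels' protocols. Among the authors' tools, the submitters' processing notes name Trim Galore, FastQC, featureCounts 2.0.1, DESeq2 and the build Rnor_6.0. For the aligner, strand setting and reads with several matches: not given in the sources used here. Tests used the deposited raw counts. The deposited normalised table holds a signal, counts divided by a size factor per library, and served only as a check: 0 genes differed from the raw counts rescaled, at a relative tolerance of 1e-06. CPM were computed with TMM-scaled library sizes. Fold changes, intervals and p-values are from edgeR 4.0.16 (R 4.3.3), a quasi-likelihood fit of 14880 genes in all 15 libraries, with Benjamini-Hochberg adjustment over all of them. It was tested on simulated data with changes larger than those of the members, so differences of the members' size were not simulated. DESeq2 1.42.0, limma 3.58.1 (voom) and sva 3.50.0 gave alternatives. Counting precision rests on 91 or more reads per member and library.

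Members and lists were chosen with earlier results of these data known. Named members were the catalytic beta subunits, Psmc5, Psmd14 and Psmd4; in each class the 3 of smallest and 1 of largest p for training, and the smallest p in the other comparisons; and members with a sign opposite to their class median. The pathway lists gave up to 2 genes each by smallest p, and Nfe2l1 was given for its role. Pomp was in the table and too low to test.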

Additional observations from a re-analysis of the deposited data

Results flagged for a closer look

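Of 84 sets of 5 libraries checked for 1 library far from the others, 6 had one, where chance gives about 1 in 20. Scrambled trained replicate 15 was at 102 CPM for Psma5, with the next library at 87.5 CPM. Scrambled trained replicate 6 was low for Psma6, at 109 CPM with the next at 134 CPM. Scrambled trained replicate 16 was at 80.5 CPM for Psmb5 with the next at 68.9 CPM, and scrambled trained replicate 10 was low for Psmd7, at 96.3 CPM with the next at 106 CPM. Rnf20-labelled replicate 18 was at 139 CPM for Psmb4 with the next at 131 CPM. In the same library the core mean exceeded the regulatory mean by 0.34 log2 units, and the next of its group was at 0.16.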

How the results depend on the processing

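No paired analysis was possible because the groups share no replicate numbers. In all 3 pairwise comparisons 0 members were called under each alternative run. The following were chosen after seeing the data: leaving out the 4 far libraries, leaving out the 3 of lowest choroid plexus level, and the reactive glia covariate. For training, members at an unadjusted p under 0.05 went from 15 to 5 without the 4 far libraries and 5 with the glia covariate, and to between 6 and 17 with 1 library left out. For the label, members above 0 went from 2 to 1 under upper-quartile scaling, with 1 surrogate variable, without the 4 far libraries and with the covariate, and to between 0 and 2 with 1 library left out. Members lower at an unadjusted p under 0.05 went from 11 to 4 with only the trained groups, 4 without the 3 choroid libraries and 6 with the covariate, and to between 2 and 16 with 1 library left out. Signs turned for members near 0. For training these were Psmd7 (0.032 with 1 surrogate variable, 0.021 without the 4 far libraries, 0.029 with the covariate, -0.018 to 0.025 with 1 library left out), Psmc5 (-0.11 without the choroid libraries, -0.067 to 0.064), Psmd12 (-0.023 without them, -0.016 to 0.046), Psmd4 (-0.0052 with the covariate, -0.0069 to 0.069) and Psmd10 (-0.13 to 0.023). For the label they were Psmc5 (-0.00125 under upper-quartile scaling, -0.016 with 1 surrogate variable, -0.049 without the 4 far libraries, -0.020 with the covariate, -0.024 to 0.10) and Psmd10 (-0.027 to 0.12). The cause was not tested. Class and overall medians kept their sign for training and the label.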
